A study of Homo sapiens with 6 samples.

Results

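Vimentin and 9 genes of actin-based contraction were described in HMLE, a breast epithelial cell line made to grow without limit, with and without Twist. The members were VIM, ACTA2, MYL9, TPM1, TPM2, CALD1, CNN1, CNN2, CNN3 and TAGLN, and every probe set annotated to 1 of these symbols alone was taken. That gave 35 probe sets for the 10 genes, of 54613 probe sets in all after Affymetrix controls were left out. Each of the 6 groups had its total RNA measured on 1 Affymetrix U133 Plus array. The Twist line carried a pBabe-Twist retrovirus, which delivers Twist, a DNA-binding inducer of EMT (epithelial-mesenchymal transition), and was given DMSO or Cmp302 at 5 µM or 10 µM. The control line carried a pBabe-shGFP retrovirus, a hairpin against GFP, and was given the same 3 treatments. Of Cmp302, a small molecule, the labels give no more than this code. Labels disagree on these steps: by title and protocol they are doses (5 µM, 10 µM) applied for 6 h, but by source name and treatment tag they are times (4 h, 8 h) at 2 µM. Titles name the arrays here, and dose and time cannot be told apart. The labels do not say whether each line was a clone or a pool.

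Vimentin forms the intermediate filaments typical of mesenchymal cells and is a standard EMT marker. Contractile actin filaments are built from smooth muscle actin (ACTA2), are coated by tropomyosins (TPM1, TPM2), and slide on myosin whose regulatory light chain is encoded by MYL9. Caldesmon (CALD1), the calponins (CNN1, CNN2, CNN3) and transgelin (TAGLN) bind actin and tune or stabilise these filaments. Many of these genes are driven by serum response factor (SRF) through a CArG box, and several mark the myoepithelial cells of the breast as well as smooth muscle and myofibroblasts. Twist binds E-boxes.

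Upstream windows of the members were read from RefSeq promoters on GRCh38.p14. A total of 8 members had 14 annotated starts, and TAGLN and MYL9 had no entry. The 250 bases before each start were searched on both strands for the strict CArG box consensus, with no mismatch allowed, and for the E-box CANNTG. An E-box lay in 5 of the 14 windows, against 61.8% of 35116 windows over all genes. A strict CArG box lay in 1, that of CNN2, against 1.16% of all windows. The ACTA2 promoter is known for CArG elements that depart from the strict consensus, which this search does not count or mark. Windows are printed for ACTA2 at its downstream start and for VIM, which differed between the lines, and for CNN2, which holds the strict CArG box. Capitals mark both motifs, which do not overlap. They start 89 bases (CArG box) and 78 bases (E-box) before the CNN2 start and 57 bases before the ACTA2 start, and the VIM window has neither.
ACTA2, minus strand, chr10:88952774-88953023: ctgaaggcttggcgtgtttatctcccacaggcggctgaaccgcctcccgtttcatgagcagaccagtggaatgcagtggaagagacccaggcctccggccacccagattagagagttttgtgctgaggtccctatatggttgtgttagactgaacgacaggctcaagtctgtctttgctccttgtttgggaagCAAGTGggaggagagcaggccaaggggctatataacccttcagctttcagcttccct
CNN2, plus strand, chr19:1026358-1026607: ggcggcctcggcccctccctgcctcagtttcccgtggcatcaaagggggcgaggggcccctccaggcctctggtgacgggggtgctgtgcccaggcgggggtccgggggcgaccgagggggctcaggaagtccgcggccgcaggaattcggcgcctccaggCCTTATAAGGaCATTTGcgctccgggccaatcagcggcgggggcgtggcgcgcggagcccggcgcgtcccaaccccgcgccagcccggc
VIM, plus strand, chr10:17227991-17228240: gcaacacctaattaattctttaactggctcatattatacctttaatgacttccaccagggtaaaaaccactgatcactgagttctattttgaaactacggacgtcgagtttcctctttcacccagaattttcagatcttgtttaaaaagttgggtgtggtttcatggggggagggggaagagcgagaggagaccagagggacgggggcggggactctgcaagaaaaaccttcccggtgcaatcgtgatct

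Signals are in log2 units, and values under a floor of 3.71, the median of all signals, were set to the floor for every difference. Of the 35 member probe sets, 24 lay above the floor on all 6 arrays, 3 on some and 8 on none. The only probe set of CNN1, the smooth muscle calponin, was among the 8, with signals of 2.40 to 2.74 in the Twist line and 2.48 to 2.67 in the control line. The other 7 below the floor belonged to ACTA2 and TPM1 (2 each), CALD1 (2) and TPM2 (1). Signals of different probe sets cannot be compared with each other, so only differences between arrays are read. As every group is 1 array, a difference between single arrays is unreplicated, and precision is limited by the number of arrays. Fewer cells of a kind and less RNA per cell cannot be told apart in such bulk RNA.

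The lines carried the markers of their labels. All 6 epithelial markers had signals of 12.11 or more on the control DMSO array and were lower in the Twist line, with CDH1, encoding E-cadherin, below the floor on its 3 Twist arrays. Of 7 mesenchymal markers, 6 were higher in the Twist line, among them ZEB1 (6.62 ± 0.25 log2 units, SE, limma adjusted p = 5.3e-05) and TWIST1 (1.06 ± 0.21, limma adjusted p = 0.018). TWIST1 also lay well above the floor in the control line, at 10.70, 10.51 and 10.48. Over all genes tested, 13.2% were called higher in the Twist line and 14.4% lower. Of 5 smooth muscle markers, LMOD1 and MYOCD were below the floor throughout, and SMTN was lower in the Twist line. MYH11 lay above the floor on all 6 arrays and DES, near the floor, on 5. Neither was called (-0.21 ± 0.17 log2 units, limma adjusted p = 0.44, and -0.14 ± 0.11, limma adjusted p = 0.41). Of 7 blood, endothelial and fat cell markers on the array, PECAM1 and FABP4 were higher in the Twist line, and PTPRC, VWF, CDH5, ADIPOQ and PLIN1 lay below the floor on every array.

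The first comparison asked how the members differed between the Twist and control lines. VIM, ACTA2 and MYL9 were higher in the Twist line under all 3 treatments, and TAGLN was lower. The tropomyosin gene TPM2 was higher on 1 probe set, while TPM1, CALD1, CNN2 and CNN3 had no probe set that passed the test. The test was limma over the 6 arrays with treatment as a factor, called at an adjusted p of 0.05 over 29283 probe sets. Of 26 member probe sets tested, the Twist line was called higher on 5 and lower on 2, against a background of 26% of all probe sets called (12.9% higher and 13.1% lower). The members' share was thus close to the background, and the median difference was 0.18 log2 units for the members and 0.01 for all. Its error, on 2 residual degrees of freedom, is how far the line difference varied over treatments, not replicate spread, and an exact permutation test of 3 against 3 arrays could not go below p = 0.1.

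**Figure D1:**
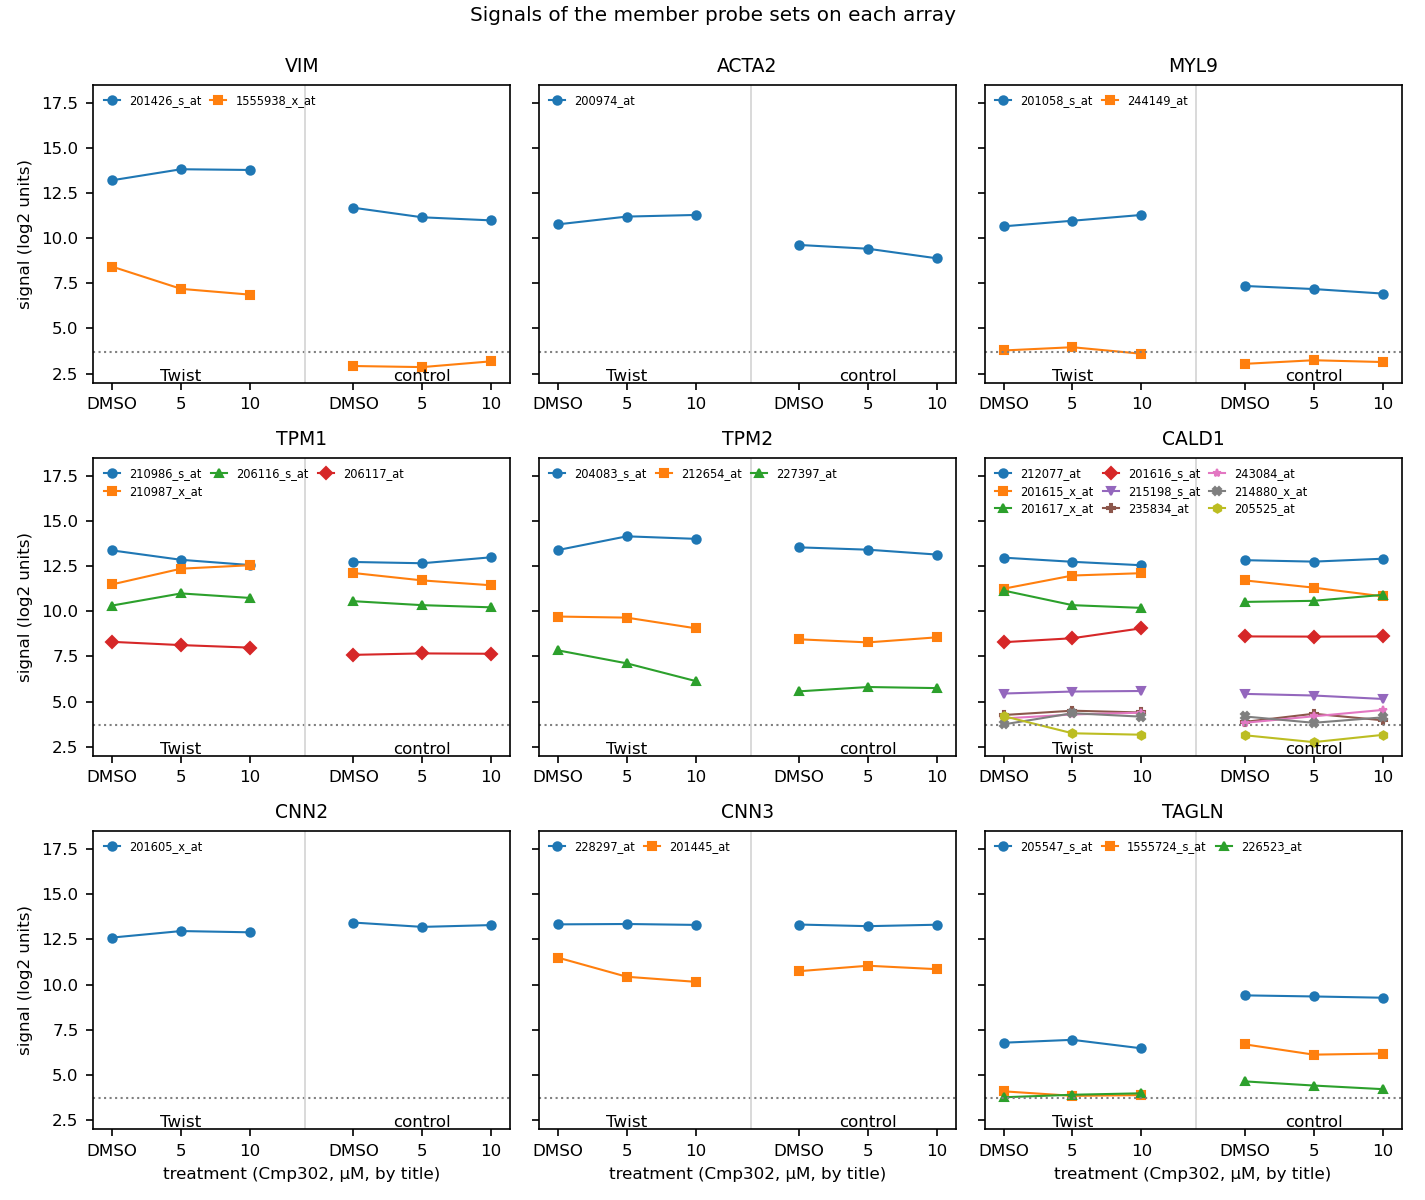
Signal (log2 units, vertical) of each member probe set above the floor on at least 1 array, by gene, for the 3 Twist arrays (left in each panel) and the 3 control arrays (right), ordered DMSO, 5 µM and 10 µM. The dotted line is the floor of 3.71. VIM, ACTA2 and MYL9 lie higher and TAGLN lower in the Twist line, and the lines of CALD1 201615_x_at and 201617_x_at cross.

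VIM was read by 2 probe sets, and both separated the lines. Probe set 201426_s_at had signals of 13.20, 13.81 and 13.77 on the Twist arrays under DMSO, 5 µM and 10 µM, against 11.68, 11.15 and 10.98 on the control arrays. Probe set 1555938_x_at had 8.42, 7.19 and 6.87 on the Twist arrays and lay below the floor on the control arrays, at 2.92, 2.86 and 3.18. On neither probe set did the lines overlap. The fitted difference was 2.32 ± 0.30 log2 units (SE, limma adjusted p = 0.0038) on the first. Under DMSO alone it was 2.87-fold, and at 10 µM 6.91-fold. On the second probe set the difference was at least 26.1-fold under DMSO, at least 11.1-fold at 5 µM and at least 8.94-fold at 10 µM. That probe set was tested because its Twist values passed the filter, and with every control value at the floor its limma adjusted p of 0.00088 does not measure the control spread. Within the Twist line the probe sets went opposite ways, with the 10 µM array 0.57 log2 units above DMSO on the first and at -1.55 against DMSO on the second.

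ACTA2, the actin of smooth muscle and myofibroblasts, had signals of 10.76, 11.19 and 11.28 on probe set 200974_at in the Twist line, against 9.62, 9.41 and 8.88 in the control line. All 3 Twist arrays lay above all 3 control arrays. Its fitted difference was 1.77 ± 0.29 log2 units (SE, limma adjusted p = 0.0085), with 2.20-fold under DMSO and 5.27-fold at 10 µM.

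MYL9, whose product switches myosin on when phosphorylated, had 10.65, 10.96 and 11.28 on probe set 201058_s_at in the Twist line, against 7.35, 7.18 and 6.93 in the control line. The gap was wide on every treatment, with 9.85-fold under DMSO and 20.4-fold at 10 µM. The fitted difference of 3.81 ± 0.27 log2 units (SE, limma adjusted p = 0.00040) stood on arrays that did not overlap. Its other probe set, 244149_at, was near or below the floor on all arrays, between 3.60 and 3.96 in the Twist line and between 3.04 and 3.24 in the control line, and carries little information.

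TAGLN, an actin cross-linker related to the calponins and a common marker of SRF activity, went the other way. Its signals on probe set 205547_s_at were 6.78, 6.94 and 6.47 in the Twist line, against 9.40, 9.34 and 9.27 in the control line. Probe set 1555724_s_at gave 4.09, 3.84 and 3.88 in the Twist line, against 6.69, 6.12 and 6.18. The lines did not overlap on either, and the fitted differences were close to each other. They were -2.61 ± 0.22 log2 units (SE, limma adjusted p = 0.00079) and -2.40 ± 0.16 (limma adjusted p = 0.00033), or 6.15-fold and 6.06-fold lower in the Twist line under DMSO. The dimmest TAGLN probe set, 226523_at, had 3.76, 3.90 and 3.98 in the Twist line, against 4.64, 4.41 and 4.21. Those values also did not overlap, and its difference of -0.54 ± 0.15 (limma adjusted p = 0.053) was not called.

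**Figure D2:**
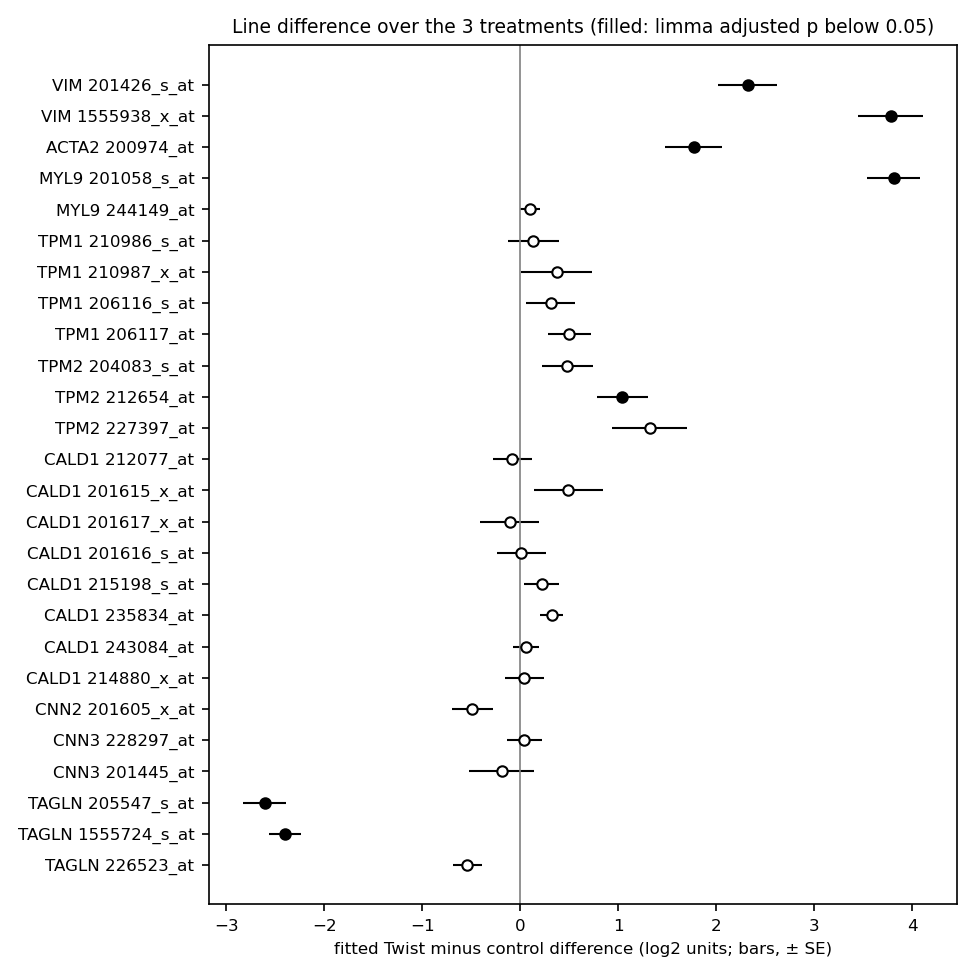
Fitted Twist minus control difference (log2 units, horizontal) with its standard error for the 26 tested member probe sets, with VIM 1555938_x_at at the floor in the control line; filled points passed a limma adjusted p of 0.05. VIM, ACTA2, MYL9 201058_s_at and TPM2 212654_at lie to the right and 2 TAGLN probe sets to the left.

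Among the tropomyosins, which stabilise actin filaments and set which myosins bind them, TPM2 differed by probe set. Probe set 212654_at had 9.71, 9.65 and 9.06 in the Twist line, against 8.45, 8.28 and 8.56 in the control line, and was called (1.04 ± 0.26 log2 units, SE, limma adjusted p = 0.036). The lines did not overlap on it, but without the 5 µM arrays its adjusted p was 0.32. Probe set 227397_at had 7.84, 7.12 and 6.14 in the Twist line, against 5.57, 5.81 and 5.75, and its difference of 1.32 ± 0.38 was not called (limma adjusted p = 0.057). The brightest TPM2 probe set, 204083_s_at, had 13.39, 14.15 and 14.01 in the Twist line, against 13.54, 13.41 and 13.14, so the lines overlapped. TPM1 had fitted differences of 0.13 to 0.50 log2 units over 4 probe sets, with limma adjusted p from 0.16 to 0.76.

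CALD1, which in its non-muscle form binds actin and tropomyosin, was read by 11 probe sets, of which 8 lay above the floor on all arrays. Their fitted differences ran from -0.11 to 0.49 log2 units, with limma adjusted p of 0.10 to 0.98. CNN2, the calponin of non-muscle and immune cells, had 12.60, 12.96 and 12.89 in the Twist line, against 13.43, 13.19 and 13.29 in the control line. It did not overlap between lines, and its difference of -0.49 ± 0.21 was not called (limma adjusted p = 0.15). CNN3, the acidic calponin, had 13.33, 13.35 and 13.30 on probe set 228297_at in the Twist line, against 13.32, 13.23 and 13.31, and the lines overlapped. Its other probe set, 201445_at, had 11.49, 10.43 and 10.15 in the Twist line, against 10.74, 11.04 and 10.85. There the Twist array was higher under DMSO (0.75 log2 units) and lower at 5 µM (-0.62) and 10 µM (-0.70), and the fitted difference of -0.19 ± 0.33 was not called (limma adjusted p = 0.74). Across the 26 tested probe sets the lines did not overlap on 12, with the Twist line above on 8 and below on 4, against a background of 48.6% of all probe sets.

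**Figure D3:**
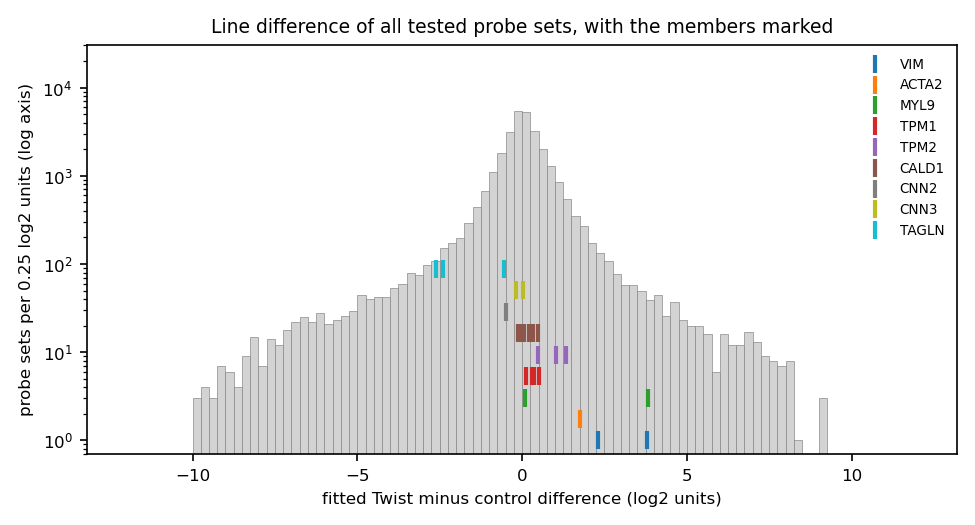
Number of probe sets per 0.25 log2 units (log axis) by fitted Twist minus control difference for all 29283 tested, with a coloured tick at each member probe set, stacked by gene; the height of a tick has no meaning. Most TPM1, CALD1 and CNN ticks fall in the central peak near 0.01, and the VIM, MYL9 and TAGLN ticks fall in the flanks.

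A fixed threshold of 2-fold between single arrays gave the same members under DMSO. Of 27 member probe sets above the floor on at least 1 of the DMSO arrays, the Twist array was higher on 6 and lower on 2, against a background of 11.9% higher and 11.8% lower (23.7% in all). The 6 were both VIM probe sets, ACTA2, MYL9 and TPM2 on 212654_at and 227397_at, and the 2 were TAGLN. At 5 µM the counts were again 6 and 2 of 26 (background 11.4% and 11%, or 22.4% in all), with the same probe sets. At 10 µM they were 6 and 2 of 25 (background 14.2% and 12.6%, or 26.7% in all), but TPM1 on 210987_x_at (1.11 log2 units) and CALD1 on 201615_x_at (1.28) stood in place of the 2 TPM2 probe sets.

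The second comparison asked how the members changed with Cmp302 within each line. In the control line none of 24 measured member probe sets was past 2-fold at either level, against a background of 0.198% of probe sets at 5 µM and 1.05% at 10 µM. In the Twist line the share of members past 2-fold was near the background at both levels. At 10 µM, 1 of 27 was higher by 2-fold than DMSO and 3 were lower, against a background of 8.18% higher and 8.38% lower (16.6% in all). At 5 µM the counts were 0 and 2 (background 4.28% and 4.75%, or 9.03% in all). The higher one was TPM1 on 210987_x_at, with signals of 11.49, 12.36 and 12.55 under DMSO, 5 µM and 10 µM. The lower ones were TPM2 on 227397_at (-1.69 log2 units), VIM on 1555938_x_at (-1.55) and CNN3 on 201445_at, with 11.49, 10.43 and 10.15. The Twist arrays at 10 µM and 5 µM did not differ by 2-fold on any of the 26 measured member probe sets (background 1.09%). For TPM2 on 227397_at that step was -0.98 log2 units, and the step from DMSO to 5 µM was -0.72.

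In the limma trend over the levels, coded 0, 1 and 2, 2 member probe sets rose and 5 fell in the Twist line, against a background of 20.1% called (10.1% rising and 10% falling). Its error, used also for the difference between trends, is how far arrays depart from a straight line within each line, not replicate spread. TPM1 rose on 210987_x_at by 0.53 ± 0.12 log2 units per level (SE, limma adjusted p = 0.035) and fell on 210986_s_at by 0.40 ± 0.10 (limma adjusted p = 0.042). CALD1 rose on 201615_x_at by 0.43 ± 0.11 (limma adjusted p = 0.046) and fell on 201617_x_at by 0.48 ± 0.12 (limma adjusted p = 0.046). TPM1 on 210986_s_at had signals of 13.37, 12.85 and 12.56 in the Twist line, against 12.73, 12.66 and 12.99 in the control line. CALD1 had 11.25, 11.98 and 12.11 in the Twist line, against 11.71, 11.31 and 10.83, on 201615_x_at. On 201617_x_at it had 11.15, 10.34 and 10.19 in the Twist line, against 10.52, 10.58 and 10.91. In each gene the Twist DMSO array thus stood apart from both Cmp302 arrays in opposite directions on its 2 probe sets. Both genes give several isoforms by alternative splicing, and the sources do not say which stretch of the transcript each probe set reads. TPM1 210987_x_at and both CALD1 probe sets carry the x suffix, given to probe sets that may cross-hybridise. Neither point was tested. Opposite calls within 1 gene were found for these 2 of the 7 members with 2 or more tested probe sets, against 116 of 6599 genes on the array (1.76%). That background was not matched for the number of probe sets per gene, of which CALD1 had 8 tested and TPM1 had 4. More probe sets give more room for opposite calls, so the shares cannot be compared directly. The other falls were TPM2 on 227397_at (0.85 ± 0.11, limma adjusted p = 0.018), VIM on 1555938_x_at (0.77 ± 0.14, limma adjusted p = 0.027) and CNN3 on 201445_at (0.67 ± 0.14, limma adjusted p = 0.033). On that VIM probe set every control value was at the floor, so its trend error and p do not measure the control spread.

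These trend calls were not stable. Leaving out any 1 array other than the Twist 5 µM array left 0 rising and 0 falling members. The background there was also 0%, so the loss held for all probe sets and not for the members alone. Each such fit has fewer residual degrees of freedom than the full one. Without the Twist 5 µM array there were 3 and 2, against a background of 17.5%. With the levels coded 0, 1 and 1 the counts were 4 and 3 of 26, against a background of 27.1%. The brightest VIM probe set, 201426_s_at, had a trend of 0.29 ± 0.12 log2 units per level (limma adjusted p = 0.13), opposite in sign to the other. MYL9 on 201058_s_at had 0.32 ± 0.10 (limma adjusted p = 0.067) and ACTA2 on 200974_at had 0.26 ± 0.10 (limma adjusted p = 0.12). TAGLN had trends of -0.15, -0.10 and 0.11 on its 3 probe sets, none called. In the control line limma called 0 member probe sets (background 0%), with 6 members and 2744 of all 29283 probe sets at an unadjusted p under 0.05.

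**Figure D4:**
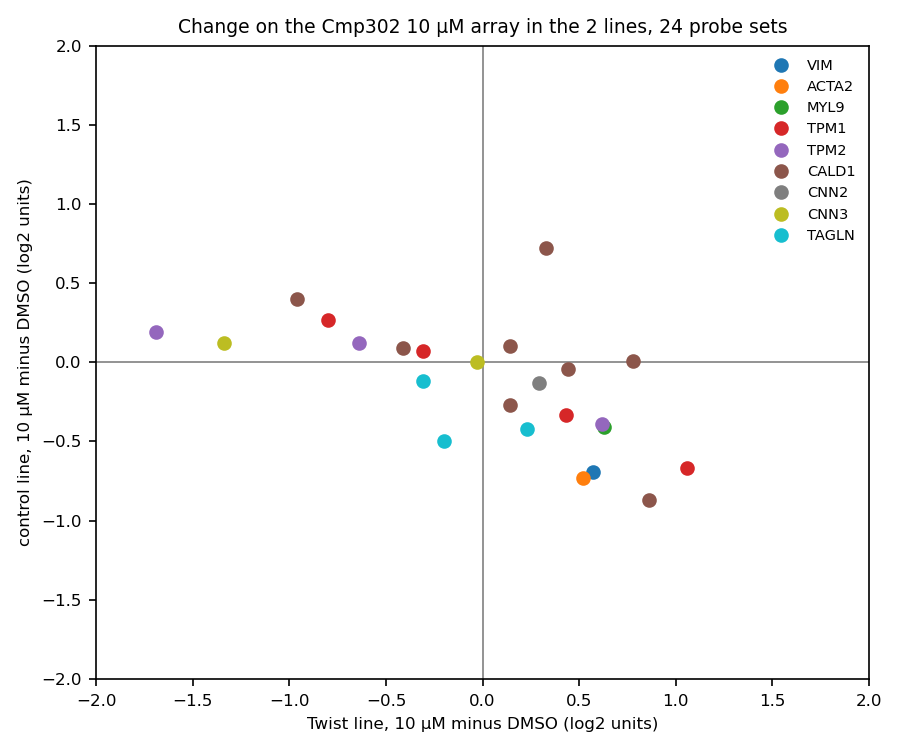
Change between the 10 µM and DMSO arrays (log2 units) in the Twist line (horizontal) and the control line (vertical) for the 24 member probe sets above the floor on all arrays, coloured by gene. The points run from upper left to lower right, and 18 of 24 have opposite signs in the lines.

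The third comparison asked whether the change with Cmp302 differed between lines. In the limma fit 0 member probe sets were called, with 13 of 26 at an unadjusted p under 0.05, against a background of 0.898% of all probe sets called, of which 10866 had an unadjusted p under 0.05. The lowest adjusted p among members was 0.056, for TPM1 on 210987_x_at (0.87 ± 0.16 log2 units per level, SE), CALD1 on 201615_x_at (0.87 ± 0.15) and TPM2 on 227397_at (-0.94 ± 0.16). With the levels coded 0, 1 and 1, 4 members were called higher and 3 lower, against a background of 19.4%. In sign, the change at 10 µM was opposite in the lines for 18 of the 24 member probe sets above the floor on all arrays, against a background of 66.1%. VIM on 201426_s_at had 0.57 log2 units in the Twist line and -0.69 in the control line. ACTA2 had 0.52 in the Twist line and -0.73 in the control line, and MYL9 had 0.63 and -0.41. For CALD1 on 201617_x_at the signs were turned, with -0.96 in the Twist line and 0.40 in the control line.

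**Figure D5:**
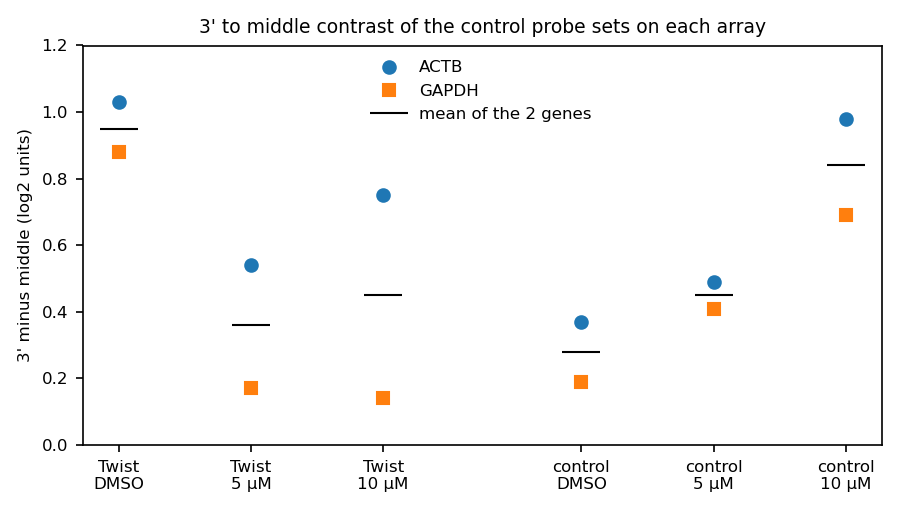
Contrast between the 3' and middle control probe sets (log2 units) of ACTB and GAPDH on each array, with a short horizontal line at the mean of both genes. The mean is highest on the Twist DMSO array (0.95) and the control 10 µM array (0.84).

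The contrast between 3' and middle control probe sets of ACTB and GAPDH, a measure of RNA quality, moved with these changes. Averaged over both genes it was 0.95, 0.36 and 0.45 log2 units on Twist arrays under DMSO, 5 µM and 10 µM, and 0.28, 0.45 and 0.84 on the control arrays. It was thus lower at 10 µM than under DMSO in the Twist line, and higher in the control line. The contrast between 3' and 5' control probe sets moved less between DMSO and 10 µM in the Twist line. For ACTB it was 1.72, 1.39 and 1.68 on the Twist arrays, and 1.12, 1.11 and 1.68 on the control arrays. For GAPDH it was 0.43, 0.47 and 0.45 on the Twist arrays, and 0.35, 0.26 and 0.36 on the control arrays. Of the 24 member probe sets above the floor on all arrays, 14 were higher at 10 µM than under DMSO in the Twist line, and 11 of these were lower at 10 µM in the control line. The other 3 were CALD1 probe sets, 201616_s_at (0.78 log2 units in the Twist line and 0.01 in the control line), 243084_at (0.33 and 0.72) and 235834_at (0.14 and 0.10). Of the 10 lower at 10 µM in the Twist line, 7 were higher in the control line. The part of either contrast in the Cmp302 changes was not tested. Line differences between arrays of similar 3' to middle contrast were as follows. At 5 µM, where the contrast was 0.36 in the Twist line and 0.45 in the control line, VIM differed by 2.66 log2 units on 201426_s_at, ACTA2 by 1.78, MYL9 by 3.77 and TAGLN on 205547_s_at by -2.40. A fit without the DMSO pair kept the 10 µM pair, of less similar contrast (0.45 in the Twist line, 0.84 in the control line). It called 10 members higher and 6 lower, against a background of 56.2% of all probe sets.

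The genes nearest in pattern to VIM and TAGLN were found over 10786 genes above the floor on all 6 arrays, by the root mean square difference between centred log2 signals. For VIM on 201426_s_at they were EPSTI1 (0.175 log2 units), the membrane-bending gene BIN1 (0.179), the proteoglycan gene CSPG4 (0.181), the gelatinase gene MMP2 (0.186) and SLC35E4 (0.199). A like line difference follows from this choice by pattern, here and for TAGLN. Each gene near VIM was higher in the Twist line, by fitted differences of 2.06 to 2.49. For TAGLN on 205547_s_at they were DHRS1 (0.090), the Notch-modifying gene LFNG (0.098), CCDC9B (0.101), the urokinase gene PLAU (0.123) and SPECC1 (0.143), all lower in the Twist line by 2.54 to 2.75 log2 units.

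Further genes of contraction were read by the brightest probe set of each. Of 18 other smooth muscle and contractile genes tested, 1 was higher and 1 lower in the Twist line, against a background of 13.2% of genes higher and 14.4% lower (27.6% in all). They were ACTG2, the enteric smooth muscle actin, which lay below the floor in the control line (at least 2.89 log2 units under DMSO, limma adjusted p = 0.00045), and SMTN, encoding smoothelin (-0.74 ± 0.20 log2 units, SE, limma adjusted p = 0.049). ACTG2 was tested because its Twist values passed the filter, and its p does not measure the control spread. The list median was -0.07. MYLK, the kinase that phosphorylates the MYL9 product, was not called (0.28 ± 0.18, limma adjusted p = 0.33; named after its value was seen). With Cmp302 in the Twist line the widest differences at 10 µM were those of CSRP1 (0.96) and ROCK2 (-0.91). In the limma trend CSRP1 rose and ROCK2 fell (adjusted p = 0.045 and 0.037), against a background of 9.73% of genes rising and 10.3% falling, or 20% in all. At 10 µM 0 of the 18 genes were past 2-fold, against a background of 8.04% of genes higher and 8.46% lower (16.5% in all).

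Of 21 other actin filament genes, 1 was higher and 3 lower in the Twist line, with a median of -0.17. The background was 13.2% of genes higher and 14.4% lower (27.6% in all), so the share called was not above it. The focal adhesion gene ZYX was higher (1.37 ± 0.30 log2 units, SE, limma adjusted p = 0.023), whereas TAGLN3, a paralogue of TAGLN, and the bundling gene LCP1 were lower and lay below the floor in the Twist line. Their differences under DMSO were at most -3.01 (limma adjusted p = 0.00029) and at most -1.78 (limma adjusted p = 0.012). As for VIM on 1555938_x_at, such a p does not measure the spread of the line at the floor. The third lower gene, FSCN1, was named after its value was seen. Of 19 measured, TMSB10 (1.10) and PLS3 (-1.05) were past 2-fold at 10 µM in the Twist line. The background there was 8.04% of genes higher and 8.46% lower (16.5% in all). Of 10 other intermediate filament genes tested, SYNM, whose product joins vimentin filaments, was higher (3.77 ± 0.23, limma adjusted p = 0.00024), and NEFH, near the floor in the Twist line, lower (at most -1.12 under DMSO, limma adjusted p = 0.0037). The list median was 0.15, and the background of line calls was again 27.6% of genes. At 10 µM in the Twist line, of 9 measured, SYNC (-1.28) and LMNB1 (-1.09) were lower and PLEC (1.03, named after its value was seen) higher. The background of that change was again 16.5% of genes past 2-fold.

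Of 17 genes of the SRF, MRTF and YAP pathway, 2 were called higher in the Twist line and 1 lower, with a median of 0.09. The background was 13.2% of genes higher and 14.4% lower (27.6% in all). CCN2, a YAP and TGF-beta target, was higher by 1.87 ± 0.23 log2 units (SE, limma adjusted p = 0.0031) and TGFB1I1 by 1.61 ± 0.24 (limma adjusted p = 0.0061), and TEAD2 was lower (-0.88 ± 0.21, limma adjusted p = 0.034). SRF itself was not called (-0.29 ± 0.19, limma adjusted p = 0.33; named after its value was seen). VGLL3 (-1.24) and YAP1 (-1.16) were lower at 10 µM in the Twist line, against a background of 8.46% of genes lower by 2-fold. Of 17 TGF-beta pathway genes, 2 were higher and 2 lower, with a median of 0.00, against the same background of 27.6% of genes called. They included TGFBR3, below the floor in the control line (at least 7.14 log2 units under DMSO, limma adjusted p = 4.8e-05), LTBP1 (3.73 ± 0.20, limma adjusted p = 0.00015) and the inhibitory SMAD7 (-1.55 ± 0.23, limma adjusted p = 0.0066). TGFBR3 was likewise tested because its Twist values passed the filter, and its p does not measure the control spread. INHBA (2.20) and TGFBI (1.12) were higher at 10 µM than under DMSO in the Twist line, against a background of 8.04% of genes higher by 2-fold. Both lay below the control line under every treatment. The line difference was -3.03 log2 units under DMSO and -0.83 at 10 µM for INHBA, and -2.39 and -0.68 for TGFBI. TGFBI was the other gene called lower between lines (-1.34 ± 0.36, limma adjusted p = 0.047).

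Of 10 basal and myoepithelial markers, 8 had a probe set of that symbol alone (not KRT17 or TP63), and 7 were tested. The Twist line was higher for 4 and lower for 3, among which ACTA2, MYL9 and TAGLN are members described above. The background was 13.2% of genes higher and 14.4% lower (27.6% in all). ACTA2, MYL9, MME and the oxytocin receptor gene OXTR (4.98 ± 0.26 log2 units, SE, limma adjusted p = 0.00013) were higher. The keratin genes KRT5 and KRT14 (-9.61 ± 0.22, limma adjusted p = 4.8e-05) were lower, as was TAGLN. The 4 members on that list therefore fell on both sides of it, with CNN1 below the floor on every array.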

How the data were processed

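The deposited table holds 1 column of log2 signal per array for 54675 probe sets. Per the submitters' processing notes the authors used GCOS 1.2, with no further step given in the sources used here. That the deposited values are log2 was judged from their range. Leaving out 62 Affymetrix controls, arrays were centred on their mean by the median log2 ratio of brighter probe sets (offsets from -0.027 to 0.008), and values under 3.71, the median, were set to that floor. Symbols came from the platform annotation, with 41091 probe sets of 1 symbol, 1801 of several and 11721 of none. Differences were tested with limma 3.58.1 (R 4.3.3; eBayes with trend) over 29283 probe sets above the floor on at least 2 arrays, with Benjamini-Hochberg adjustment at 0.05, and were tested on simulated data. One fit had line and treatment as factors, another line, level and their interaction. Other genes were read by their brightest probe set. Between 27173 and 27474 probe sets lay above the floor per array, and signals correlated at 0.969 to 0.995 among Twist arrays, 0.994 to 0.997 among control arrays and 0.894 to 0.905 between lines. The members, lists and tests were chosen with earlier results of these data known. Named by rule were all members, of each list the 3 genes with the widest called line difference and the 2 with the widest Twist-line difference at 10 µM, and the 5 nearest genes to VIM and TAGLN. The alternatives were the deposited scaling, quantile normalization, other floors, no filter, no signal trend, other level codes, probe sets without suffixes, and leaving out arrays or treatment pairs. The 5 µM array as baseline was added after seeing the data.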

Additional observations from a re-analysis of the deposited data

How the results depend on the processing

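The line test compares the lines within each treatment, and no replicate block could be added, as the labels give no replicate numbers and each group has 1 array. No member changed sign where it was called, under any alternative. MYL9 on 201058_s_at and TAGLN on 205547_s_at kept their line calls under all 9 alternatives in which they were tested. With no filter, 1 member was called higher in the line fit, and VIM (adjusted p of 0.068 and 0.092), ACTA2 (0.12) and TPM2 (0.17) were not. That setting called 2927 probe sets between lines, 38 in the Twist-line trend (0 and 0 members), 16 in the control-line trend and 44 in the difference of trends. Leaving out 1 treatment pair gave 4686 to 16456 line calls, with 4 to 10 members higher and 2 to 6 lower, the high ends without the DMSO pair. Leaving out 1 array gave 0 to 5120 Twist-line trend calls, with 0 to 3 members rising and 0 to 2 falling, and 0 calls in the difference of trends. The cause was not tested. That difference, with 263 calls, had 1 under the deposited scaling, 91 with quantile normalization, 32 with the floor at the 35th percentile, 0 at the 65th and 0 without the signal trend, but 5669 with levels coded 0, 1 and 1 (4 and 3 members). That coding gave 4 and 3 members in the Twist-line trend.

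With the floor at the 65th percentile there were 4528 line calls, 1 member was lower in the line fit (TAGLN on 1555724_s_at had an adjusted p of 0.26) and under DMSO, 5 µM and 10 µM, and 29 and 166 probe sets were past 2-fold in the control line at 5 µM and 10 µM. Suffixed probe sets (s, x or a) include every one of VIM, MYL9 and TAGLN called in the line fit. Of these calls only VIM on 1555938_x_at carries the x suffix, given where probe sets may cross-hybridise, and the others carry s. Without all suffixed probe sets, which leaves fewer to test, there were 5006 line calls (2 and 0 members) and 3709 Twist-line trend calls (0 and 2). Past 2-fold between lines were 4518 under DMSO, 4195 at 5 µM (3 and 0 members each) and 4935 at 10 µM (1 and 0). In the Twist line 1588 were past 2-fold at 5 µM (1 member lower) and 2959 at 10 µM (0 members higher). With the 5 µM array as baseline, 302 probe sets (0 and 0 members) in the Twist line and 59 in the control line were past 2-fold at 10 µM. With the median over probe sets, 1 contractile, 1 smooth muscle marker and 8 actin filament genes were lower between lines under DMSO, and 0 intermediate filament genes were higher and 1 SRF pathway gene lower at 10 µM.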
